A study of Mus musculus with 12 samples.

Results

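Potassium channel genes were examined in cells sorted from embryonic spiral ganglia, which hold the primary auditory neurons that link hair cells of the cochlea to the brainstem. The members were the genes whose symbol starts with Kcn, taken from the annotation of the Ensembl identifiers in the count table and limited to protein-coding genes. There were 84 such genes among the 25674 rows of the table. A further 10 annotated Kcn genes are not analysed here. The members were not chosen by their measured values, but the interest in this gene family came after other results of these data were known.

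All embryos carried Neurod1Cre and the Cre reporter Rosa26tdTOM on a mixed C57BL/6/sv129 background, and were taken at E14.5. Control embryos carried no further allele in the labels, and the libraries labelled Isl1CKO came from Neurod1Cre;Isl1loxP/loxP;Rosa26tdTOM embryos. Isl1 encodes a LIM homeodomain transcription factor of sensory neurons. Cre came from a Neurod1 BAC transgene, so recombination reaches only cells in which that transgene has been active, and the sort on tdTomato takes any such cell. Each of the 6 samples per genotype held 100 sorted cells from the spiral ganglia of a single embryo of either sex, drawn from 4 litters in all. One tag in the labels names the samples technical replicates and the design text calls them biological, so the p-values measure the spread between these samples.

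Potassium channels let potassium ions leave or enter the cell and so set the resting voltage, the firing threshold and the shape of the action potential. A voltage-gated channel is built from several alpha subunits, which can be joined by modulatory and auxiliary subunits that alter gating and delivery to the membrane. In auditory neurons, low-threshold Kv1 and Kv7 currents limit repetitive firing, Kv3 currents shorten the spike, and inward rectifiers and tandem-pore channels help to hold the resting voltage.

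In each direction, the 2 members with the smallest p and a single RefSeq promoter window at the annotated start are shown by their sequence just before the transcription start, because LIM homeodomain proteins bind DNA with a TAAT core. Capitals mark every TAAT or ATTA, which are the same motif read on either strand. The sequences are from RefSeq on GRCm38.p6, written 5′ to 3′ on the gene's strand. Kcna6 (chr6:126740675-126740924, minus strand) and Kcnh6 (chr11:106007898-106008123, plus strand) were lower in the libraries labelled Isl1CKO. Kcnip2 (chr19:45816064-45816313, minus strand) and Kcnh1 (chr1:192190527-192190773, plus strand) were higher.
Kcna6: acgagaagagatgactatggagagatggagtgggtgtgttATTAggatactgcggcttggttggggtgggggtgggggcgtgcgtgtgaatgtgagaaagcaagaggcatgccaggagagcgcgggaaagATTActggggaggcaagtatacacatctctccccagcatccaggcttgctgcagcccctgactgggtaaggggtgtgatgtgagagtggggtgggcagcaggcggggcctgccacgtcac
Kcnh6: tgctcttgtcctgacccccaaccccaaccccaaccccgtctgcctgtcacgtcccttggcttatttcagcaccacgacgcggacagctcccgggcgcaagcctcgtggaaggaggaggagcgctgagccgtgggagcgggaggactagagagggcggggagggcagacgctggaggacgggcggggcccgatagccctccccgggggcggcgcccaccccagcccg
Kcnip2: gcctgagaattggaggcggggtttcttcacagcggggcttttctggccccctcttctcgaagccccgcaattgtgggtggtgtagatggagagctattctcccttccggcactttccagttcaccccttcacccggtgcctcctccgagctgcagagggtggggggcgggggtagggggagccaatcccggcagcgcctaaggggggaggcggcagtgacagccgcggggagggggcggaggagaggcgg
Kcnh1: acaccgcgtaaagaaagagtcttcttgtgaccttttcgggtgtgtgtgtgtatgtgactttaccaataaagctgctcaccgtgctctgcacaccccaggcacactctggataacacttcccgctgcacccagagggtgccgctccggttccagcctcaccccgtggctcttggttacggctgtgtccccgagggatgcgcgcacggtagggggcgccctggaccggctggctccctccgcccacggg

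The Kcna6 stretch held 2 matches and the other 3 stretches held 0. A promoter window, reaching from 250 bases before the start to just after it, was found for 60 of the 84 members. TAAT or ATTA stood in a window of 30 of these 60 members, or 50.0%, and in a window of 58.5% of all 27025 genes with one. Among the members past the threshold, it stood in 6 of 7 lower genes and in 0 of 4 higher genes with a window. A match to 4 letters is common and marks no binding site, and its absence says only that these letters are not in this window.

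Total counts ran from 11895603 to 13857480 per library, and 3 counts, taken as the floor of detection, corresponded to 0.217 to 0.253 CPM. CPM is a gene's count scaled to a library of common size. Isl1 itself was at 1171 to 1777 CPM in controls and 1050 to 1589 CPM in the libraries labelled Isl1CKO. The difference was -0.15 on the log2 scale (SE 0.11, edgeR adjusted p = 0.460), so whole-gene counts did not separate the groups and the genotype rests on the labels. In Isl1CKO 2, 3 and 5, Xist was at 62.9, 77.8 and 132 CPM while 4 Y-linked genes averaged 61.0, 87.3 and 35.7 CPM, although each sample is labelled as 1 embryo. Each of the other 9 libraries had either Xist or the Y-linked genes at 0.426 CPM or less. Results past the threshold are therefore also given without those 3 libraries where that ends a call.

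Summed markers of spiral ganglion neurons were at 16551 to 19116 CPM in controls and 14436 to 16614 CPM in the libraries labelled Isl1CKO. Of these markers, 7 of 14 were past the threshold, against 10.2% of all tested genes. Gata3 (means of 1474 and 225 CPM), Nefl (1505 and 580), Nefm (3337 and 881) and Elavl4 (1708 and 1219) were lower. Neurod1 (1471 and 2715 CPM), Stmn2 (1896.5 and 2760) and Slc17a6 (365 and 667) were higher. Summed macrophage markers ran from 1.55 to 378 CPM and from 0.948 to 695 CPM, with 0 of 7 tested genes past the threshold. Schwann cell and satellite glia markers summed to 31.9 to 186 CPM and 35.0 to 260 CPM (0 of 6 tested). Hair cell markers summed to 503 to 826 CPM and 346 to 657 CPM (2 of 5 tested). Most of that sum was Myo6 (means of 407 CPM in controls and 410 CPM in the other group) and Pvalb (275 and 54.3 CPM). Pou4f3, Gfi1, Lhx3 and Tmc1 had means of 0.544 CPM or less. Mesenchyme markers summed to 38.6 to 84.5 CPM and 72.0 to 122 CPM (2 of 4 tested), mostly Pou3f4 (52.9 and 27.4 CPM) and Tbx18 (1.09 and 39.5 CPM). Col3a1 was at 2.66 and 14.1 CPM, Col1a2 at 1.30 and 4.67 CPM and Prrx1 at 0.337 and 4.72 CPM. Twist1 went the other way, at 1.13 and 0.0129 CPM. Col1a1, Dcn, Lum and Pdgfra had means of 0.701 CPM or less. Endothelial and pericyte markers summed to 1.24 to 3.41 CPM and 1.6 to 30.1 CPM. Of these, Cldn5 and Emcn had at most 3 counts in any library. Kdr had a highest library of 0.417 CPM in controls and 27.7 CPM in the other group. Melanocyte markers summed to 1.5 to 16.5 CPM and 10.2 to 18.6 CPM, and erythroid markers to 1.41 to 4.81 CPM and 1.01 to 5.87 CPM. Except where marker covariates are named below, the part of these cells in the results was not tested.

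Of the 84 members, 54 had enough counts to be tested and 30 did not. The edgeR quasi-likelihood F-test, with p adjusted over all 14813 tested genes (Benjamini-Hochberg), put 13 members under an adjusted p of 0.05. Of these, 8 were lower and 5 were higher in the libraries labelled Isl1CKO. They make up 24.1% of the tested members, against 10.2% of all tested genes. In the lower direction the shares were 14.8% of members and 5.19% of all genes, and in the higher direction 9.26% and 5.01%. A further 8 members had an unadjusted p under 0.05 only.

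The libraries of the groups did not overlap for 11 of the tested members, or 20.4%, against 6.78% of all tested genes. Of these 11, 6 were lower, 5 were higher, and 9 were among the 13 past the threshold. The median log2 fold change of the tested members was -0.16, compared with 0.0045 for all tested genes, with 31 members below 0 and 23 above. Samples hold bulk RNA, so fewer cells of a type and less RNA per cell cannot be told apart.

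**Figure D1:**
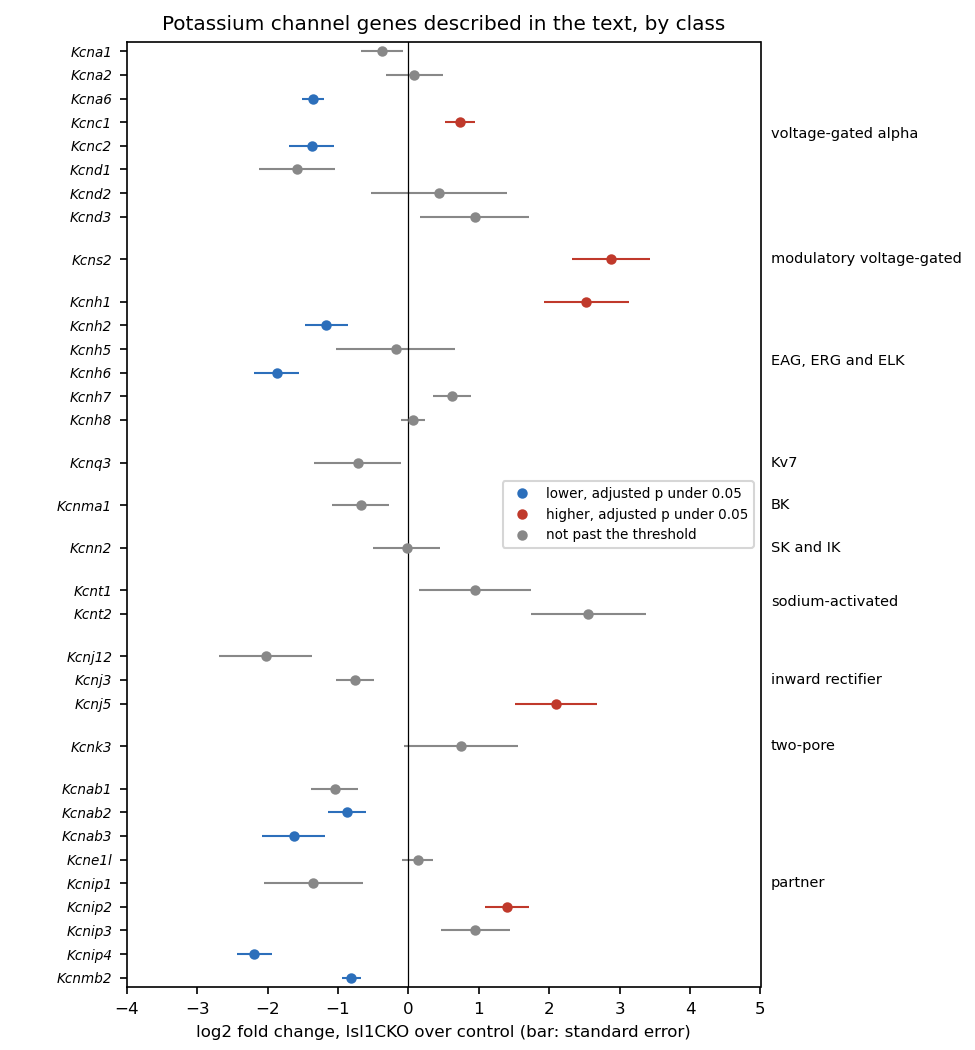
Log2 fold change of the 33 tested members described in the text, libraries labelled Isl1CKO over control, ordered by channel class on the vertical axis, with bars for the standard error. Blue and red points are the 8 lower and 5 higher members past an adjusted p of 0.05; the remaining 20 are grey. The largest fall among the 13 is that of Kcnip4 at -2.19 and the largest rise that of Kcns2 at 2.88.

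The number of members called depended on which samples and covariates entered the fit. With the levels of macrophage and Schwann cell markers in the model, 7 of 54 members (13%) were called, against 6.33% of all genes. Without Isl1CKO 2, 3 and 5, 6 of 58 (10.3%) were called, against 4.73% of all genes. Kcnip4, Kcna6, Kcnh6, Kcnmb2 and Kcns2 were called under all 21 alternatives. The other 8 were each lost under at least 1.

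Among the pore-forming alpha subunits of voltage-gated channels (Kcna, Kcnb, Kcnc and Kcnd), all 15 members were tested, and 2 were lower and 1 was higher. Kcna6 (ENSMUSG00000038077, chromosome 6, 126708329 to 126740674, GRCm38), which encodes a Kv1 subunit, was at 100.2 CPM in the lowest, 116 in the median and 140.0 in the highest control library. In the libraries labelled Isl1CKO these values were 33.0, 42.9 and 66.3 CPM. Every control library lay well above the highest Isl1CKO library. The mean fell from 119.9 ± 15.9 to 46.9 ± 12.5 CPM (SD, n = 6), and the log2 fold change was -1.36 (SE 0.16, edgeR adjusted p = 5.38e-05). An exon of Kcna6 overlaps Gm26673 on the opposite strand, and the strand setting of the counting is not given in the sources used here, so reads of the overlap cannot be assigned.

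The other named Kv1 subunits did not pass the threshold. Kcna1, the low-threshold subunit mutated in episodic ataxia, was at 8.64, 28.5 and 35.0 CPM in the lowest, median and highest control library and at 12.6, 20.9 and 28.9 CPM in the libraries labelled Isl1CKO. The groups overlapped over most of their range (log2 fold change -0.38, SE 0.30, edgeR adjusted p = 0.500). Kcna2 was at 1.55, 3.08 and 6.48 CPM against 2.59, 3.43 and 5.65 CPM (log2 fold change 0.08, SE 0.41, edgeR adjusted p = 0.932). Per kilobase of annotated exon, Kcna6 held 68.2% ± 4.93 of the summed Kcna level in controls and 48.4% ± 6.09 in the libraries labelled Isl1CKO (SD, n = 6). The share of Kcna1 was 18.2% ± 6.33 and 26.3% ± 7.49. The summed Kcna level itself was 29.6 ± 3.48 CPM per kb in controls and 16.2 ± 3.68 CPM per kb in the other group.

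The Kv3 subunits, which allow fast repolarisation, moved in both directions. Kcnc2 (ENSMUSG00000035681, chromosome 10, 112271121 to 112467024) was at 27.4, 43.0 and 51.8 CPM in the lowest, median and highest control library, and at 6.78, 13.2 and 31.8 CPM in the libraries labelled Isl1CKO. Only Isl1CKO 1 reached into the control range, above control 5. Kcnc2 fell with a log2 fold change of -1.37 (SE 0.32, edgeR adjusted p = 0.0119).

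Kcnc1 (ENSMUSG00000058975, chromosome 7, 46396497 to 46438704) was at 9.78, 19.7 and 21.9 CPM in controls and at 22.2, 29.4 and 44.4 CPM in the libraries labelled Isl1CKO. There was no overlap, although the highest control library and the lowest Isl1CKO library lay close together. Kcnc1 rose with a log2 fold change of 0.73 (SE 0.21, edgeR adjusted p = 0.0416). As shares of the summed Kcnc level per kilobase, Kcnc2 was at 59.6% ± 7.51 in controls and 32.7% ± 13.7 in the libraries labelled Isl1CKO, and Kcnc1 at 20.2% ± 4.88 and 51.1% ± 16.5 (SD, n = 6).

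Neither Kv3 call held under every alternative. Without Isl1CKO 2, 3 and 5 the edgeR adjusted p of Kcnc2 was 0.0981 and that of Kcnc1 was 0.178. The Kcnc1 call was also lost with the marker covariates (log2 fold change 0.87, adjusted p = 0.0836) and with no expression filter, and on removing any single library among control 1, 2, 4, 5 and 6 and Isl1CKO 3, 4, 5 and 6. The edgeR adjusted p over these 9 removals ran from 0.0540 to 0.104.

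In the Kv2 and Kv4 families, 0 of 5 members passed the threshold. The Kv4 subunits carry the fast inactivating A-type current. Kcnd2 was at 0, 0.190 and 1.70 CPM in the lowest, median and highest control library and at 0.0753, 0.923 and 2.10 CPM in the libraries labelled Isl1CKO (edgeR adjusted p = 0.836), and Kcnd3 at 0.0732, 1.42 and 4.90 CPM against 0.672, 2.99 and 8.87 CPM (edgeR adjusted p = 0.514). Kcnd2 was at or under the floor in some libraries of each group, and Kcnd3 in 1 control. Kcnd1, named after its values were seen as the Kv4 gene with the highest control median, was at 4.07, 7.82 and 14.3 CPM against 0.656, 2.68 and 6.80 CPM. Its log2 fold change was -1.58 (SE 0.54, edgeR adjusted p = 0.0828).

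Modulatory subunits (Kcnf, Kcng, Kcns and Kcnv) form no channel alone and alter Kv2 channels when built into them. Only 2 of 9 had enough counts to be tested, and Kcns2 was the member with the largest rise. Kcns2 (ENSMUSG00000050963, chromosome 15, 34837355 to 34843407) was at 1.67, 7.04 and 16.2 CPM in the lowest, median and highest control library and at 19.1, 47.9 and 118 CPM in the libraries labelled Isl1CKO. Between the groups there was no overlap, with Isl1CKO 3 lowest and Isl1CKO 5 highest in its group. The mean was 8.03 ± 6.24 CPM in controls and 59.1 ± 34.2 CPM in the other group (SD, n = 6), a log2 fold change of 2.88 (SE 0.55, edgeR adjusted p = 0.00305). With each library left out in turn, the log2 fold change stayed between 2.56 and 3.20.

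The Kcnh genes encode the EAG, ERG and ELK channels, of which ERG channels close slowly and damp repeated firing. Of 8 members, 7 were tested, and 2 were lower and 1 higher. Kcnh6 (ENSMUSG00000001901, chromosome 11, 106008124 to 106034549), an ERG-type gene, was at 57.3, 65.4 and 74.2 CPM in the lowest, median and highest control library and at 7.60, 16.5 and 38.4 CPM in the libraries labelled Isl1CKO. All control libraries lay above all Isl1CKO libraries, of which Isl1CKO 2 was the highest. The mean fell from 65.3 ± 7.14 to 17.9 ± 11.4 CPM (SD, n = 6), and the log2 fold change was -1.87 (SE 0.32, edgeR adjusted p = 0.00147).

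Kcnh2 (ENSMUSG00000038319, chromosome 5, 24319589 to 24351604), the ERG gene that also acts in cardiac repolarisation, was at 6.58, 8.77 and 19.5 CPM in controls and at 3.72, 4.83 and 6.41 CPM in the other group. No libraries overlapped, but control 2 and Isl1CKO 1 were nearly equal. Kcnh2 fell with a log2 fold change of -1.17 (SE 0.31, edgeR adjusted p = 0.0249). The third ERG gene, Kcnh7, was at 12.8, 13.9 and 18.6 CPM against 13.4, 19.4 and 43.1 CPM and did not pass the threshold (log2 fold change 0.63, SE 0.27, edgeR adjusted p = 0.176). An exon of Kcnh7 overlaps Gca on the opposite strand.

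Kcnh1 (ENSMUSG00000058248, chromosome 1, 192190774 to 192510159), an EAG gene, was at 0.0741, 1.82 and 3.37 CPM in controls and at 2.48, 10.8 and 14.6 CPM in the libraries labelled Isl1CKO. Isl1CKO 3 alone lay within the control range, and control 4, with 1 count, was under the floor. Kcnh1 rose with a log2 fold change of 2.53 (SE 0.61, edgeR adjusted p = 0.0145). Its relative Kcnh5 was at 0, 0.756 and 2.74 CPM against 0.0776, 0.897 and 2.46 CPM (edgeR adjusted p = 0.926).

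The Kcnh1 call was lost with the marker covariates, although the log2 fold change was larger there at 2.90 (edgeR adjusted p = 0.0594). The Kcnh2 call was lost with the marker covariates (log2 fold change -1.15, edgeR adjusted p = 0.0915) and without Isl1CKO 2, 3 and 5 (0.176). Removing control 1, control 3, Isl1CKO 2, Isl1CKO 5 or Isl1CKO 6 singly also ended the Kcnh2 call (edgeR adjusted p from 0.0526 to 0.0662). Per kilobase, Kcnh6 held 54.8% ± 4.45 of the summed Kcnh level in controls and 23.5% ± 12.8 in the libraries labelled Isl1CKO (SD, n = 6). Kcnh8, an ELK gene named for its share after values were seen, held 25.8% ± 2.99 and 43.8% ± 10.2, and Kcnh1 0.707% ± 0.483 and 6.60% ± 2.86. The level of Kcnh8 itself was similar, with means of 39.5 and 41.2 CPM (log2 fold change 0.06, SE 0.17, edgeR adjusted p = 0.875). The summed Kcnh level was 33.7 ± 4.05 and 20.8 ± 3.22 CPM per kb.

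**Figure D2:**
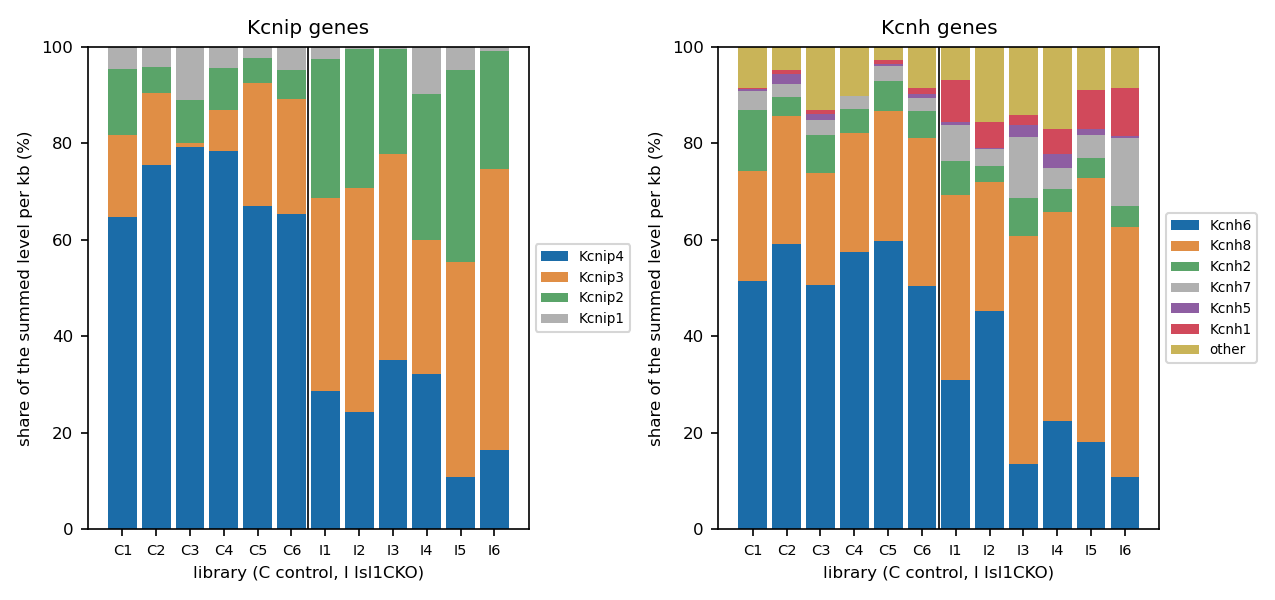
Share of the summed level per kilobase (%) held by each Kcnip gene (left) and by the Kcnh genes (right). Bars are the 6 control (C) and 6 Isl1CKO (I) libraries. Kcnh genes not described in the text are pooled as other. The Kcnip4 segment spans 64.8% to 79.2% in controls and 10.8% to 35.1% in the libraries labelled Isl1CKO, and the Kcnh6 segment 50.4% to 59.8% and 10.8% to 45.3%.

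The Kcnip genes encode calcium-binding proteins that join Kv4 channels and raise their density at the membrane. All 4 were tested, and 1 fell and 1 rose. Kcnip4 (ENSMUSG00000029088, chromosome 5, 48389502 to 49524907) was at 37.2, 58.7 and 71.6 CPM in the lowest, median and highest control library and at 6.25, 12.9 and 17.2 CPM in the libraries labelled Isl1CKO. Even the highest Isl1CKO library lay below the lowest control. The mean fell from 56.6 ± 12.8 to 12.4 ± 4.55 CPM (SD, n = 6), and the log2 fold change was -2.19 (SE 0.25, edgeR adjusted p = 4.43e-05), the smallest p among the members. Exons of Kcnip4 overlap 5730480H06Rik and Gm20700 on the opposite strand.

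Kcnip2 (ENSMUSG00000025221, chromosome 19, 45791839 to 45816061) was at 4.03, 5.47 and 7.63 CPM in controls and at 8.92, 13.3 and 28.2 CPM in the other group. All libraries of the second group lay above the controls, Isl1CKO 5 the furthest. Kcnip2 rose with a log2 fold change of 1.40 (SE 0.31, edgeR adjusted p = 0.00905). Of the 2 remaining Kcnip genes, named here to complete the family, Kcnip3 had a log2 fold change of 0.95 (SE 0.49, edgeR adjusted p = 0.267) and Kcnip1 one of -1.35 (SE 0.70, edgeR adjusted p = 0.269). The Kcnip2 call was lost with the marker covariates (log2 fold change 1.21, edgeR adjusted p = 0.0918) and without Isl1CKO 2, 3 and 5 (0.105).

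The share of Kcnip4 in the summed Kcnip level per kilobase was 71.7% ± 6.73 in controls and 24.6% ± 9.37 in the libraries labelled Isl1CKO (SD, n = 6). Kcnip3 held 15.2% ± 9.34 and 43.3% ± 9.89, and Kcnip2 7.94% ± 3.28 and 29.1% ± 6.17. The summed Kcnip level was 21.6 ± 3.50 and 14.47 ± 3.72 CPM per kb, so the shares are of a lower sum in that group. The shares of Kcnip4, Kcnip3 and Kcnip2 did not overlap between the groups.

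The Kcnab genes encode cytoplasmic beta subunits that bind Kv1 channels, and 2 of 3 were lower. Kcnab3 (ENSMUSG00000018470, chromosome 11, 69326258 to 69333042) was at 7.09, 10.3 and 16.7 CPM in controls and at 1.16, 2.35 and 8.39 CPM in the libraries labelled Isl1CKO. Only Isl1CKO 1 lay within the control range. Kcnab3 fell with a log2 fold change of -1.63 (SE 0.45, edgeR adjusted p = 0.0319). An exon of it overlaps Kcnab3os on the opposite strand.

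Kcnab2 (ENSMUSG00000028931, chromosome 4, 152390742 to 152477871) was at 15.1, 25 and 30.2 CPM against 6.10, 13.6 and 20.8 CPM. The groups overlapped between control 5 and Isl1CKO 5 and 6. Kcnab2 fell with a log2 fold change of -0.87 (SE 0.26, edgeR adjusted p = 0.0497), at the edge of the threshold, and it shares exonic sequence with Gm16334 on the same strand. Kcnab1, named after its values were seen as the most abundant of the family, was at 79.3, 121 and 151 CPM against 19.5, 47.1 and 127 CPM. Isl1CKO 1 lay within the control range, and the log2 fold change was -1.05 (SE 0.34, edgeR adjusted p = 0.0645).

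With the marker covariates the edgeR adjusted p was 0.131 for Kcnab3 and 0.245 for Kcnab2, at log2 fold changes of -1.60 and -0.82, and without Isl1CKO 2, 3 and 5 it was 0.179 and 0.0853. The Kcnab3 call was lost on removing control 2, control 4, Isl1CKO 2, Isl1CKO 4, Isl1CKO 5 or Isl1CKO 6 singly (edgeR adjusted p from 0.0541 to 0.0720). That of Kcnab2 was lost on removing any single library among control 1, 2, 3, 4 and 6 and Isl1CKO 1, 2, 3, 4 and 6 (edgeR adjusted p from 0.0648 to 0.0931).

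Calcium-activated BK channels join a pore subunit, Kcnma1, with beta subunits from the Kcnmb genes. Kcnmb2 (ENSMUSG00000037610, chromosome 3, 31902507 to 32200180), a beta subunit that makes BK channels inactivate, was at 218 CPM in the lowest, 312 in the median and 358 in the highest control library. In the libraries labelled Isl1CKO it was at 122, 190.2 and 200.1 CPM. The groups did not overlap, although the highest Isl1CKO libraries lay close to the lowest control. The mean fell from 304 ± 53.9 to 174 ± 31.1 CPM (SD, n = 6), and the log2 fold change was -0.81 (SE 0.14, edgeR adjusted p = 0.00147). Kcnma1 was at 8.08, 14.3 and 18.3 CPM against 2.44, 6.92 and 19.6 CPM, and the groups overlapped over the whole control range (log2 fold change -0.68, SE 0.40, edgeR adjusted p = 0.339).

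The small-conductance and sodium-activated channels had no member past the threshold. Kcnn2, the SK gene also known from hair cells, was at 1.83, 3.35 and 3.92 CPM against 0.871, 2.83 and 6.67 CPM (edgeR adjusted p = 0.982). Of the sodium-activated genes, Kcnt1 was at 0.250, 1.21 and 2.85 CPM against 0.151, 2.02 and 6.05 CPM (log2 fold change 0.94, edgeR adjusted p = 0.528). Kcnt2 was at 0.0793, 0.221 and 3.75 CPM in controls and at 4.67, 5.21 and 11.0 CPM in the libraries labelled Isl1CKO. Its groups did not overlap, and 2 controls, 2 and 3, lay far above the other 4. Of those, controls 1, 5 and 6 were under the floor. The log2 fold change was 2.56 (SE 0.82) and missed the threshold (edgeR adjusted p = 0.0619). Kcnt2 was called under 5 of the 20 alternatives that tested it, among them the marker covariates, which put its log2 fold change at 4.88 (edgeR adjusted p = 0.0204).

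The Kv7 channels carry the M-current, which opposes repeated firing. Of 5 Kcnq genes, 3 were tested and 0 passed the threshold. Kcnq3 was at 1.32, 3.00 and 17.9 CPM in the lowest, median and highest control library and at 1.09, 3.88 and 5.54 CPM in the libraries labelled Isl1CKO (edgeR adjusted p = 0.530). Its groups overlapped widely, and its spread leaves a standard error of 0.61 on the log2 scale. Kcnq5 had too few counts to be tested.

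Inward rectifiers pass potassium more easily into the cell than out of it. Of 14 Kcnj genes 5 were tested, and 1 was higher. Kcnj5 (ENSMUSG00000032034, chromosome 9, 32314707 to 32344350), a subunit of the channels opened by G proteins, was at 0.166, 1.2 and 2.50 CPM in controls and at 2.90, 4.50 and 7.92 CPM in the libraries labelled Isl1CKO. The groups did not overlap. Control 1, with 2 counts, was under the floor, and control 5, with 4 counts, was just above it. Kcnj5 rose with a log2 fold change of 2.10 (SE 0.58, edgeR adjusted p = 0.0324).

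The Kcnj5 call was lost with the marker covariates (log2 fold change 2.46, edgeR adjusted p = 0.0881), without Isl1CKO 2, 3 and 5 (0.123), and on removing control 2, control 5, control 6, Isl1CKO 1, Isl1CKO 3 or Isl1CKO 4 singly (0.0514 to 0.0701). Kcnj3, which encodes a partner of Kcnj5 in such channels, was at 11.9, 13.7 and 22.9 CPM against 4.85, 8.65 and 13.5 CPM. Its groups overlapped (log2 fold change -0.76, SE 0.27, edgeR adjusted p = 0.0898). Kcnj12, named after its values were seen because its groups did not overlap, was at 5.93, 6.41 and 8.21 CPM against 0.0747, 1.90 and 3.72 CPM. Isl1CKO 3 and 4 had almost no counts of it, and the log2 fold change was -2.03 (SE 0.67, edgeR adjusted p = 0.0697).

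The tandem-pore channels carry leak current. Of 12 Kcnk genes 4 were tested, and 0 passed the threshold. Kcnk3 was at 0, 0.739 and 1.5 CPM in controls and at 0.0729, 1.2 and 1.90 CPM in the libraries labelled Isl1CKO (edgeR adjusted p = 0.641). Kcnk1 had too few counts to be tested, with a highest library of 2.49 CPM in controls and 1.96 CPM in the other group. So had Kcnk2, with 5.78 and 7.07 CPM, and Kcnj10, which is known as a glial inward rectifier and reached 0.166 and 0.875 CPM.

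The 30 members that were not tested had group means of 2.19 CPM or less. The highest level of any of them in a library was 7.07 CPM, that of Kcnk2. In 3 of them, no library exceeded 3 counts. They include all 4 Kcng and both Kcnv genes, 9 of 14 Kcnj genes and 8 of 12 Kcnk genes. They were left out by the expression filter. With no filter, edgeR put 0 of the 30 under an adjusted p of 0.05 and 4 under an unadjusted p of 0.05. Kcnn4, an intermediate-conductance channel gene named after its values were seen, was the only one of the 30 whose groups did not overlap. It was at 0.238 to 2.34 CPM in controls and 0 to 0.226 CPM in the libraries labelled Isl1CKO. Controls 1 and 5 and Isl1CKO 3 each had 3 counts of it, the floor, so only the scaling sets them apart. Control 6, with 32 counts, was the highest. Among the named members that were not called, Kcnab1, Kcnd3, Kcnma1, Kcnn2 and Kcnk3 share exonic sequence with a counted gene on the opposite strand, so their levels are uncertain.

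**Figure D3:**
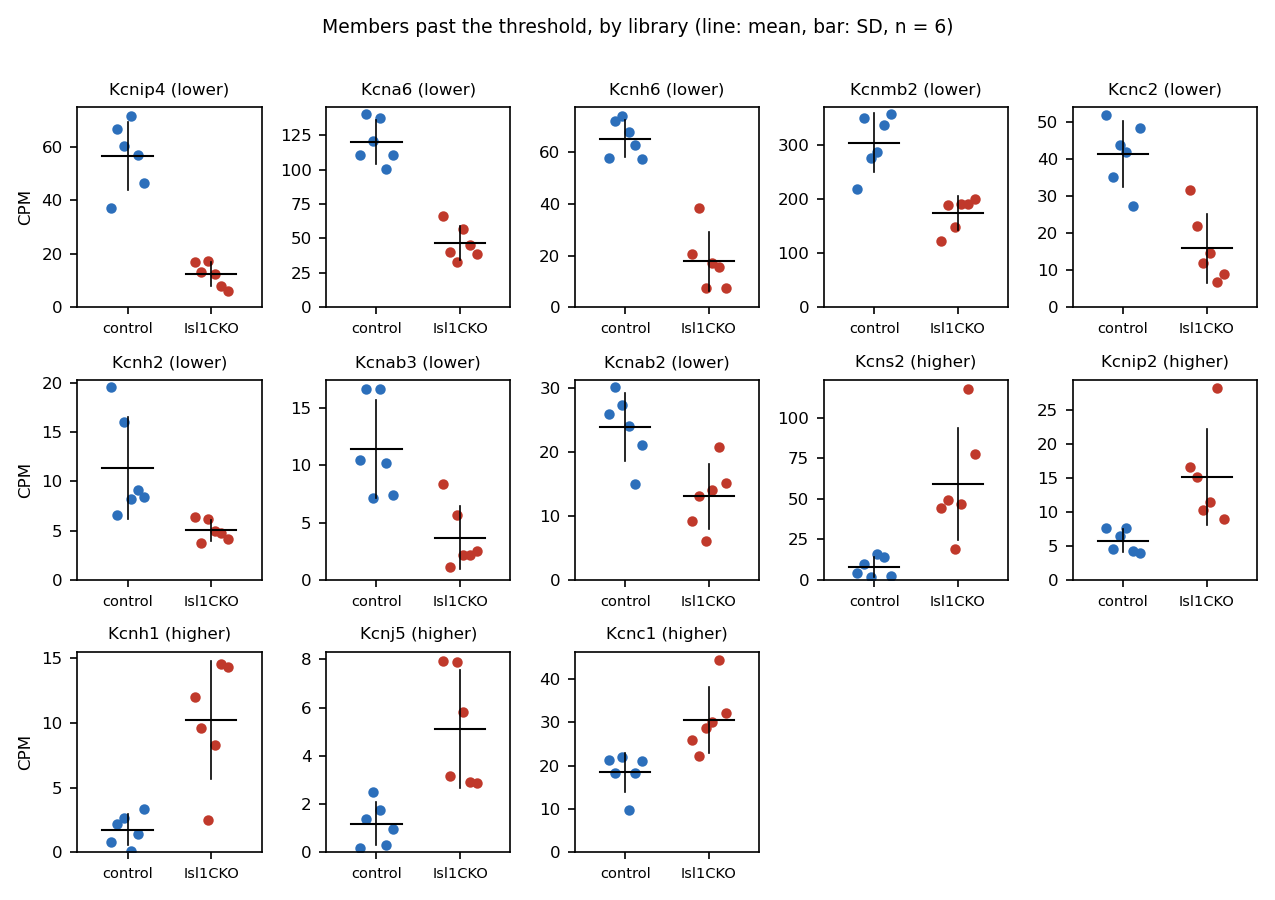
CPM of the 13 members past the threshold in each library (points; 6 control, 6 Isl1CKO), with the mean (horizontal line) and SD (vertical line); each panel has its own axis from 0. The points of the groups do not meet in 9 panels, and they overlap for Kcnc2, Kcnh1, Kcnab3 and Kcnab2.

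Scarce members varied more between libraries than abundant ones. The median coefficient of variation between control libraries was 22.2% over the 13 tested members with a control mean of at least 20 CPM, a level chosen after the data were seen, and 56.4% over the other 41.

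**Figure D4:**
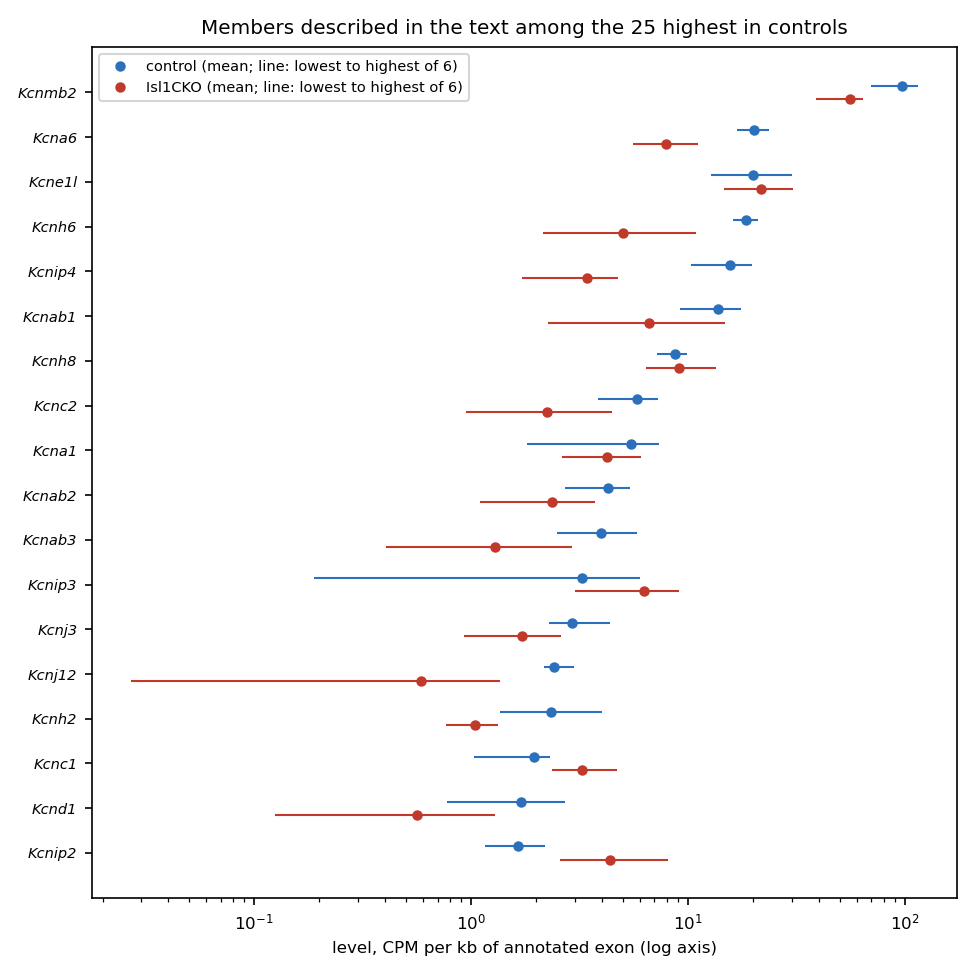
Mean level per kilobase of annotated exon (points, log axis) of the members described in the text that are among the 25 with the highest control level, with lines from the lowest to the highest of 6 libraries in each group. Kcnmb2 leads both groups at 97.3 and 55.6 CPM per kb, and the lines of Kcna6, Kcnh6 and Kcnip4 do not meet between the groups.

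Per kilobase of annotated exon, which allows levels to be compared between genes, Kcnmb2 was the most abundant member in controls at 97.3 CPM per kb. It was followed by Kcna6 at 20.2, Kcne1l at 19.9, Kcnh6 at 18.4, Kcnip4 at 15.6 and Kcnab1 at 13.7 CPM per kb. In the libraries labelled Isl1CKO, these 6 genes were at 55.6 for Kcnmb2, 7.88 for Kcna6, 21.8 for Kcne1l, 5.03 for Kcnh6, 3.42 for Kcnip4 and 6.63 CPM per kb for Kcnab1. Kcns2 at 10.6 and Kcnh8 at 9.04 CPM per kb stood above Kcna6 in that group. In controls Kcns2 was at 1.44 and Kcnh8 at 8.67 CPM per kb. The levels of Kcna6, Kcne1l and Kcnh6, neighbours in this order, overlapped between control libraries. Kcne1l, a KCNE-family accessory subunit gene, is named here for its level after values were seen, and it overlapped between the groups.

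Summed over all 84 members, the level was 1151 to 1320 CPM in controls and 769 to 1007 CPM in the libraries labelled Isl1CKO, with no overlap. The means were 1235 ± 76.6 and 902 ± 87.2 CPM (SD, n = 6). The 71 members that were not called or not tested summed to 490.0 to 660 CPM and 413 to 570.0 CPM, which overlapped. They were set apart by the same comparison of the groups, so this overlap is no separate test. These sums are dominated by abundant and long transcripts and are given as a description.

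Genes of other names that work with potassium channels or move potassium were read from 8 lists with 64 genes, of which 56 were tested. Of these, 12 passed the edgeR adjusted p of 0.05, or 21.4% against 10.2% of all tested genes, with 8 lower and 4 higher.

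Dpp10, an auxiliary protein of Kv4 channels like the Kcnip proteins, had the largest fold change of them. It was at 57.1, 113 and 158 CPM in the lowest, median and highest control library and at 0.729, 4.62 and 27.9 CPM in the libraries labelled Isl1CKO. The groups did not overlap, and Dpp10 fell with a log2 fold change of -3.73 (SE 0.65, edgeR adjusted p = 0.00188). It was the only member of its list of 6 tested genes past the threshold.

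Lrrc55, a BK gamma subunit, was at 19.6, 31.1 and 48.5 CPM in controls and at 2.09, 6.01 and 11.8 CPM in the other group, again without overlap. It fell with a log2 fold change of -2.27 (SE 0.36, edgeR adjusted p = 6.72e-04). The potassium-chloride cotransporter gene Slc12a7 went from 114, 183 and 211 CPM to 12.0, 24.8 and 50.0 CPM without overlap. Slc12a7 fell with a log2 fold change of -2.66 (SE 0.31, edgeR adjusted p = 4.46e-05), and 0 of the other 4 tested cotransporter genes passed.

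Proteins that place Kv1 channels along the axon were called in both directions, with 3 of 17 lower and 2 higher. Epb41l3, a membrane skeleton protein beside the node, was at 244, 278 and 354 CPM against 116, 137 and 152 CPM and fell with a log2 fold change of -1.08 (SE 0.10, edgeR adjusted p = 5.11e-06). Ank3, which encodes ankyrin G, the organiser of the axon initial segment, fell by 0.80 on the log2 scale (edgeR adjusted p = 4.85e-04), and Adam22 fell by 0.62 on the log2 scale (edgeR adjusted p = 0.0261). The gene Cntnap2, which encodes the adhesion protein Caspr2 that holds Kv1 channels beside the node, was at 14.7, 25.3 and 44.1 CPM against 51.2, 77.2 and 93.4 CPM. It rose with a log2 fold change of 1.45 (SE 0.22, edgeR adjusted p = 5.79e-04), and Ank2 rose by 0.62 on the log2 scale (edgeR adjusted p = 2.86e-04). Only Adam22 among these 5 genes overlapped between the groups.

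Among sodium-potassium ATPase genes, which build the gradient that potassium channels use, 1 of 11 was lower and 2 were higher. Atp1b2 was at 16.9, 22.6 and 24.9 CPM against 37.2, 43.1 and 74.8 CPM and rose with a log2 fold change of 1.10 (SE 0.18, edgeR adjusted p = 8.65e-04). Fxyd6 rose by 0.55 on the log2 scale (edgeR adjusted p = 0.00542). Rgs7, a regulator of channels opened by G proteins, fell by 1.47 (log2; edgeR adjusted p = 0.0120).

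Of the 12 partner calls, 8 held under all 21 alternatives. Without Isl1CKO 2, 3 and 5 the edgeR adjusted p was 0.289 for Adam22, 0.178 for Rgs7 and 0.0512 for Fxyd6. Single removals also ended the Adam22 call (control 1 or 4, Isl1CKO 2, 4 or 5, with adjusted p from 0.0560 to 0.0640). No member of the Kv7 regulator or sulphonylurea receptor lists passed, with 0 of 5 and 0 of 1 tested genes.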

How the data were processed

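RNA was measured in 12 samples of 100 sorted cells each. The authors deposited a table of raw whole-number counts per Ensembl gene for all samples. Per the submitters' processing notes, cutadapt 1.18, Bowtie 1.2.2, STAR 2.7.0c and featureCounts were used with build GRCm38.p6; their parameters, the annotation and the strand setting are not given in the sources used here, so genes that overlap another are uncertain. Libraries were amplified by PCR without molecular identifiers in the count table, so floors cover counting error only.

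Symbols, coordinates and exon lengths come from GENCODE M21 on GRCm38, matched by identifier for 25620 of 25674 genes. Genes were kept with filterByExpr at a minimum count of 10, scaled with TMM and compared between the groups with the robust quasi-likelihood F-test of edgeR 4.0.16 in R 4.3.3, without covariates. Adjustment of p was by Benjamini and Hochberg's method over the 14813 tested genes, with 0.05 as threshold. SE is the absolute log2 fold change over the square root of F. CPM use the tested-gene totals after TMM as library sizes, and levels per kilobase divide these by annotated exon length. The scripts were tested on simulated data. No library was found to repeat another.

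Named genes were all members past the threshold, a set list of well-known auditory channel genes, and partner genes past it; others are said to be named after their values were seen. Some members and partner genes enter the counts but are not reported here by name. The members, lists, tests and alternatives were chosen with earlier results of these data known. The alternatives were scaling by upper quartiles or by DESeq2 size factors, testing unfiltered genes or those averaging 5 CPM or more, the Wald test of DESeq2 1.42.0, voom of limma 3.58.1 with sample weights, a replicate block, macrophage and Schwann marker covariates, removal of Isl1CKO 2, 3 and 5, and removal of each library in turn.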

Additional observations from a re-analysis of the deposited data

Results flagged for a closer look

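Dixon's criterion, which marks about 1 group in 20 by chance, was applied to 68 group values of the named members. It marked 5, against 3.4 from chance alone; in each, 1 library was far from the rest of its group. Kcnc1 in control 4 was at 9.78 CPM, below the 18.2 to 21.9 CPM of the other controls. Kcnk2 in control 4 was at 5.78 CPM, against 0.146 to 1.83 CPM. Kcnq5 in control 1 was at 4.90 CPM, against 0.296 to 1.03 CPM. Kcnk1 in Isl1CKO 3 was at 1.96 CPM, against 0 to 0.543 CPM. Kcnj10 in Isl1CKO 5 was at 0.875 CPM, against 0 to 0.155 CPM in the other libraries of its group. Of these 5 genes only Kcnc1 was tested, and its call was lost without control 4.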

How the results depend on the processing

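All 13 members called kept their direction under each of the 21 alternatives that tested them (Kcnj5 was not tested at a mean of at least 5 CPM), and 5 kept their call under each of them. The number called went from 13 to 7 with the marker covariates and to 6 without Isl1CKO 2, 3 and 5; over all genes it went from 1511 to 938 and 767. With 1 library left out it was 9 to 13, and 1178 to 1517 over all genes. The DESeq2 Wald test called 17 of 52 tested members (32.7%) and limma-voom 17 of 54 (31.5%). With no expression filter, 11 of 84 (13.1%) were called. Over all genes, too, the number called rose with the Wald test and limma-voom and fell with no filter. The members without overlap went from 11 of 54 tested to 7 of 30 at a mean of at least 5 CPM. With 1 library left out they were 11 to 15, a count that leaving out a library can only keep or raise. The partner genes called were 10 to 18 with 1 library left out, with 18 without Isl1CKO 3. Kcnt1, Kcnd2, Kcna2, Kcnh5 and Kcnn2, none of them called, changed sign under some settings; the cause was not tested. The log2 fold change of Kcnt1 was -1.161 with the marker covariates, and that of Kcna2 -0.2639 without Isl1CKO 2, 3 and 5. That of Kcnh5 was 0.2924 with limma-voom and 0.6711 with the marker covariates, and that of Kcnn2 was 0.03755 with the marker covariates. With 1 library left out, the log2 fold change ran from -0.06476 to 1.028 for Kcnd2, -0.6419 to 0.2565 for Kcnh5, -0.07836 to 0.3285 for Kcna2 and -0.4123 to 0.1631 for Kcnn2. Of the members not called, some moved by over 1.5 times without Isl1CKO 2, 3 and 5, with log2 fold changes of -1.24 for Kcnma1 and Kcnn2, -0.90 for Kcnd1, -0.64 for Kcnab1, -0.07 for Kcna1, -0.48 for Kcnq3, 1.47 for Kcnt1, 1.29 for Kcnk3, 0.12 for Kcnd2 and -0.10 for Kcnh5. With the replicate number as a block, 12 members were called, with Kcnab2, Kcnab3 and Kcnc1 lost and Kcnab1 and Kcnt2 gained. The labels do not say that a number marks a shared litter or day, and same-numbered samples correlated at -0.056 to 0.155 in their deviations from the group means, so the numbers were not read as pairs. For 2 of the 6 numbers the best match was their own. Another scaling moved the median log2 fold change of all genes by less than 0.1. The 30 members outside the expression filter are limited by their low counts.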

Other observations

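Among the members with too few counts to be tested, a few libraries stood out, which were picked after their values were seen. Kcnk13, a tandem-pore gene, was at 5.11 CPM in Isl1CKO 6 and at no more than 0.0831 CPM in any control library. Macrophage markers summed to 228 CPM in Isl1CKO 6, but to 695 CPM in Isl1CKO 4. Their part in the Kcnk13 value was not tested.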
